A study of Mus musculus with 35 samples.

Results

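Plekha1 and Shisa6 are mouse genes, and a stretch of chromatin in or near each became more accessible when embryonic stem cells left the naive state. The chromatin of both loci was followed in the deposited ATAC-seq table, which divides the genome into tiles of 2 kb. ATAC-seq uses a transposase that cuts accessible DNA and tags it with adapters, so that reads pile up where chromatin is open. The members are the tiles of each gene and of the 40 kb on either side, on GRCm38. There are 67 tiles around Plekha1 (chromosome 7, gene at 130860551 to 130913494) and 200 around Shisa6 (chromosome 11, gene at 66211725 to 66527984), that is 267 of 1362779 tiles in the table. In each window 1 tile was chosen because it rose from D0 to D2 in both parental lines. The chosen Plekha1 tile, 130888001 to 130890000, lies inside the gene, 28.4 kb from its start coordinate and 24.5 kb before its end coordinate. The chosen Shisa6 tile, 66568001 to 66570000, lies beyond the gene, 41.0 kb from its end coordinate to the tile centre. It begins 17 bases outside the 40 kb window and was counted as a member because it was named as one. The long non-coding RNA gene Gm40028 (66546949 to 66556312) and the pseudogene Gm12297 (66563589 to 66564767) lie nearer to this tile than Shisa6. Which gene the tile acts on was not tested. The annotation used here gives genes without exons, so it was not determined whether the Plekha1 tile covers an exon.

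The cells were mouse embryonic stem cells grown in 2i/Lif (D0) and epiblast-like cells made from them after 1 day (D1) or 2 days (D2). There were 4 lines: TET_WT, the parent of TET_KO, which lacks Tet1, Tet2 and Tet3, and DNMT_WT, the parent of DNMT_KO, which lacks Dnmt1, Dnmt3a and Dnmt3b. The Tet enzymes oxidise 5-methylcytosine and the Dnmt enzymes place and maintain it. Every combination of line and day, 12 groups in all, had 3 libraries, and only TET_KO at D2 had 2 (replicates 1 and 3). Each library was made from 10000 cells with 13 PCR cycles. The labels name 1 line per genotype and do not say that replicates came from separate cultures, so p-values measure the spread between these libraries, which may be technical.

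Plekha1, also called TAPP1, encodes an adaptor protein whose pleckstrin homology domain binds phosphatidylinositol 3,4-bisphosphate, PI(3,4)P2, a membrane lipid made downstream of PI3-kinase. Shisa6 encodes a transmembrane protein of the Shisa family that associates with AMPA-type glutamate receptors at synapses of neurons. Naive embryonic stem cells in 2i/Lif resemble the early epiblast, and epiblast-like cells resemble the epiblast after implantation, a transition in which distal regulatory elements are widely exchanged.

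The chosen Plekha1 tile holds no listed start site of Plekha1, and the chosen Shisa6 tile lies outside Shisa6. Promoter activity of the chosen tiles was not tested. RefSeq lists 2 start sites for Plekha1 on the plus strand of GRCm38.p6, both in the tile 130864001 to 130866000, and 1 for the neighbouring gene Htra1, which encodes a secreted serine protease. Their promoters, 250 bases before to 50 after the start, are shown because the chosen tiles are set against these starts below. CpG dinucleotides are in capitals, 5′ to 3′ on the plus strand.
Plekha1 promoter, chr7:130865474-130865773: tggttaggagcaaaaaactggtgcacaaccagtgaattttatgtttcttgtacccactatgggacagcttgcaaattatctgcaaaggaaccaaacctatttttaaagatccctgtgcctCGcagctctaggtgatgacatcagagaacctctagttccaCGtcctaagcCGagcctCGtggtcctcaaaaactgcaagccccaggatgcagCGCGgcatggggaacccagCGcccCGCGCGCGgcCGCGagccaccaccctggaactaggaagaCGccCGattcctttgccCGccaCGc
Plekha1 promoter, chr7:130865637-130865936: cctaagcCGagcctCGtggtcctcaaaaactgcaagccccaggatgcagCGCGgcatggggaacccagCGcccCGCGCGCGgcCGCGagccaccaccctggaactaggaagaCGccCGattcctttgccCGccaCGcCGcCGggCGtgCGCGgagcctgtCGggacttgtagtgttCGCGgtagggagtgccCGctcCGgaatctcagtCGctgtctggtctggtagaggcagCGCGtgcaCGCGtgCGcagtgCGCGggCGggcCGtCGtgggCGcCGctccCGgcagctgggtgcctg
Htra1 promoter, chr7:130935953-130936252: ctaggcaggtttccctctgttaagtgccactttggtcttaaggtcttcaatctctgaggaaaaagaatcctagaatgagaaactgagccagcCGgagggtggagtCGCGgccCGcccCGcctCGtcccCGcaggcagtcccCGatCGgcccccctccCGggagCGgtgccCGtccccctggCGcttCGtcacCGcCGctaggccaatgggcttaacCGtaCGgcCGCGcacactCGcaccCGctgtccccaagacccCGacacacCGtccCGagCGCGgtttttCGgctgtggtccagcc
The Plekha1 promoters overlap and hold 17 and 39 CpG, and the Htra1 promoter holds 28, where the median over 32851 RefSeq promoters of this length was 7. Of all those promoters 31.41% held at least as many CpG as the first Plekha1 promoter, 4.447% at least as many as the second and 14.18% at least as many as that of Htra1. The letters GGGCGG, searched on both strands, occurred in the second Plekha1 promoter on the plus strand and in the Htra1 promoter on the minus strand, against 35.66% of all promoters on either strand. Shisa6 is named only.

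The libraries held 4172670 to 23686796 reads in tiles. D1 libraries held 5.62 to 46.8% mitochondrial reads and the D0 and D2 libraries none, so the day and the processing cannot be told apart in any comparison of D1 with another day. The DNMT libraries at D0 and D2 (4886942 to 7620098 reads) were shallower than most TET libraries (6036825 to 23686796). Accessibility at gene loci of naive pluripotency genes fell from D0 to D2 in the knockout lines for 4 of 10 listed genes in TET_KO and 5 of 10 in DNMT_KO, among them Tfcp2l1 (-1.19 ± 0.14 and -1.21 ± 0.13, log2 change ± SE, limma adjusted p = 6.67e-05 and 4.46e-06) and Zfp42 (-1.06 ± 0.17 and -0.78 ± 0.15, limma adjusted p = 0.00168 and 0.00566). Of 10 formative epiblast genes 0 passed in TET_KO (4 at an unadjusted p under 0.05) and 2 rose in DNMT_KO, Pou3f1 by 0.79 ± 0.19 (limma adjusted p = 0.0259) and Dnmt3a by 0.54 ± 0.13 (limma adjusted p = 0.0303). Leaving out 1 library kept Tfcp2l1 in all fits, Zfp42 in 4 of 5 in TET_KO and 6 of 6 in DNMT_KO, Pou3f1 in 1 of 6 and Dnmt3a in 0 of 6 (highest adjusted p 0.126 and 0.112). With values as deposited, TET_KO lost Tfcp2l1 (limma adjusted p = 0.0805) and Zfp42 (0.163) and DNMT_KO lost Pou3f1 (0.458) and Dnmt3a (0.791), and with reads thinned to 1 depth Zfp42 was lost in both knockouts (0.194 and 0.0872) and Pou3f1 in DNMT_KO (0.213). The other naive genes called were Esrrb and Tdh in both knockouts and Tbx3 in DNMT_KO. In TET_KO Esrrb and Tdh were each kept in 1 of 5 fits without 1 library. They were lost without replicate 1 at D0 (limma adjusted p = 0.135 and 0.0776) and without replicate 2 at D0 (0.12 and 0.121). In DNMT_KO Tbx3 was kept in 2 of 6 fits without 1 library and Esrrb and Tdh in 5 of 6. With values as deposited TET_KO lost Esrrb (0.827) and Tdh (0.565), and DNMT_KO lost Esrrb (0.19), Tbx3 (0.143) and Tdh (0.107). The background was 0.245% of 21631 gene loci called in TET_KO and 2.25% in DNMT_KO. None of the listed fibroblast (8), primitive endoderm (7), neuroectoderm (6) and mesoderm (6) genes passed in either knockout (limma). At an unadjusted p under 0.05 there were 1, 2, 4 and 0 of them in TET_KO and 1, 2, 1 and 3 in DNMT_KO. The mean log2 level of the neuroectoderm loci was taken relative to the mean over all gene loci of each library. These relative values were 0.41 to 0.59 in TET_KO at D0 and 0.92 to 0.98 at D2. In its parent TET_WT they were 0.46 to 0.62 and 0.73 to 1.01, so the TET parent rose too. In DNMT_KO they were 0.56 to 0.60 at D0 and 0.45 to 0.59 at D2, and in DNMT_WT 0.54 to 0.60 and 0.63 to 0.70. The part of these cell types in the tile changes was not tested. The deleted exons are not given in the sources used here. Reads over the targeted genes therefore check the labels only in part: of 42 Tet1 tiles 1 was empty in all 8 TET_KO libraries while the parent had at least 20 reads there, and 0 such tiles were found over the other 5 genes. The median RPM (reads scaled to the library total) summed over Tet3 was 57.2 in TET_WT (49.3 to 62.7) and 44.5 in TET_KO (40.4 to 51.0).

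At the chosen Plekha1 tile the level was low in every D0 library and higher in every later one. Levels are log2 RPKM after quantile normalisation over the tested tiles, with the recovered reads behind each value, in order of replicate. In TET_WT the levels were -1.81, -2.06 and -3.10 at D0 (15, 5 and 3 reads), 0.13, 0.46 and 0.80 at D1 (17, 15 and 21 reads) and 1.05, 0.66 and 1.19 at D2 (32, 23 and 46 reads). In DNMT_WT they were -1.01, -1.98 and -2.52 at D0 (5, 2 and 2 reads), 0.68, -0.66 and 0.28 at D1 (15, 7 and 8 reads) and 1.11, 0.96 and 0.17 at D2 (19, 14 and 9 reads). Every parental D1 and D2 library was above every D0 library of its line, and D1 and D2 overlapped in both parents. The parental D0 and D2 libraries chose the tile, so this order is a description, and no share of tested tiles is given for it.
In TET_KO the levels were -1.05, -3.03 and -1.55 at D0 (8, 1 and 3 reads), 0.14, 0.68 and 1.19 at D1 (14, 19 and 19 reads) and 0.74 and 1.10 at D2 (17 and 40 reads). In DNMT_KO they were -1.28, -1.99 and -0.85 at D0 (4, 2 and 5 reads), -0.11, 0.44 and 0.43 at D1 (9, 10 and 7 reads) and 0.14, -0.23 and 0.13 at D2 (13, 8 and 10 reads). In both knockouts, as in their parents, D0 was lowest and D1 and D2 overlapped. The mean at D2 was below that at D1 in DNMT_KO (0.01 and 0.25) and above it in DNMT_WT (0.75 and 0.10). With 1 to 15 reads per library at D0, the D0 level and so the size of each rise are imprecise.

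At the chosen Shisa6 tile the mean D0 level of each line was higher than at Plekha1 and again the lowest of the 3 days in each line. In TET_WT the levels were -0.56, -0.91 and -0.85 at D0 (29, 10 and 12 reads), 0.87, 1.57 and 1.09 at D1 (28, 39 and 26 reads) and 1.54, 2.09 and 1.67 at D2 (42, 76 and 63 reads). In DNMT_WT they were -2.98, -0.43 and -0.53 at D0 (1, 6 and 9 reads), 1.67, 1.67 and 0.99 at D1 (29, 30 and 13 reads) and 1.50, 1.66 and 1.75 at D2 (25, 22 and 24 reads). DNMT_WT replicate 1 at D0, with 1 read, was far below the other D0 libraries of that line.
In TET_KO the levels were -0.16, -0.51 and -0.17 at D0 (14, 8 and 8 reads), 1.63, 1.81 and 2.01 at D1 (37, 48 and 36 reads) and 2.13 and 1.58 at D2 (50 and 56 reads). In DNMT_KO they were -0.19, 0.00 and -0.60 at D0 (9, 9 and 6 reads), 1.06, 0.17 and 1.25 at D1 (21, 8 and 14 reads) and 0.88, 0.90 and 1.29 at D2 (20, 16 and 20 reads). The D1 and D2 libraries of DNMT_KO were the only later knockout libraries with levels under 1.58, and all 3 of its D2 libraries were below the 3 of its parent.

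**Figure D1:**
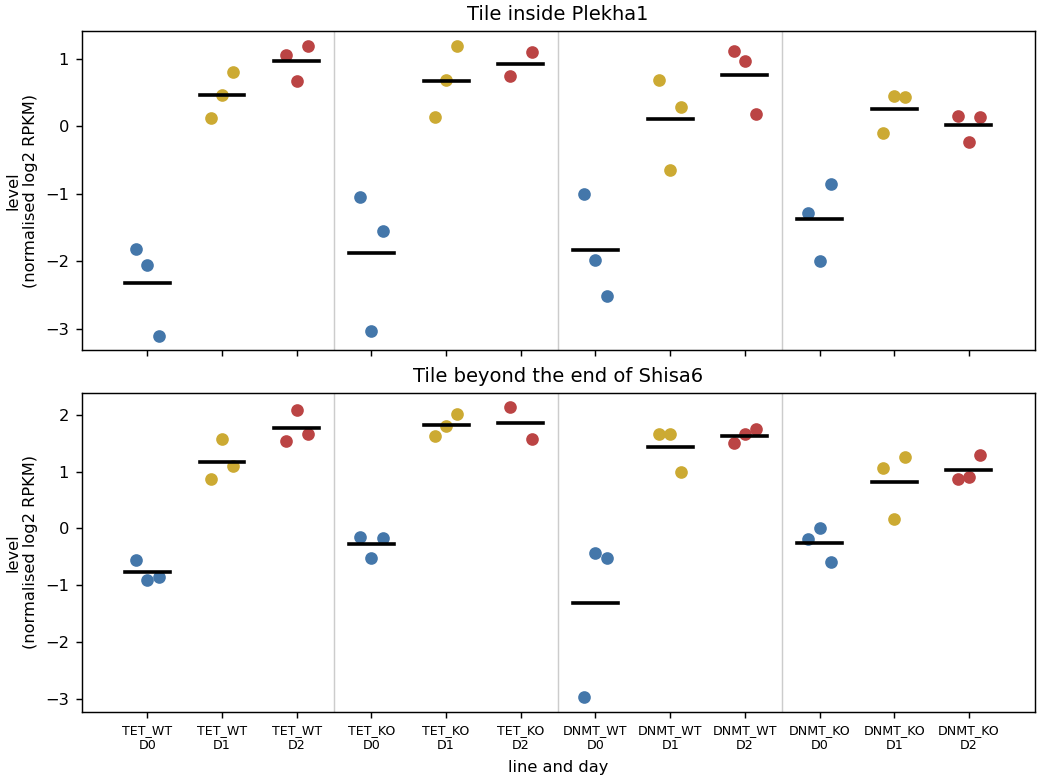
Level of the chosen tiles in every library. Each point is 1 library, the vertical axis is log2 RPKM after quantile normalisation, the bar is the group mean, and groups are ordered by line and day. The D0 libraries are at or below -0.85 at the Plekha1 tile and at or below 0.00 at the Shisa6 tile, and every later library is higher.

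Over all lines the 12 D0 libraries reached at most -0.85 at the Plekha1 tile and the 23 D1 and D2 libraries were at least -0.66. At the Shisa6 tile the bounds were 0.00 and 0.17. All D1 and D2 libraries were above all D0 libraries in 14 of 148172 tested tiles (0.00945%). The parental D0 and D2 libraries chose the tiles, so this share is a description. Ordered by mean, the D0 groups of the Plekha1 tile ran from -2.32 ± 0.68 (SD, n = 3) in TET_WT through TET_KO (-1.87 ± 1.03) and DNMT_WT (-1.84 ± 0.76) to -1.38 ± 0.57 in DNMT_KO. The later groups ran from 0.01 ± 0.21 in DNMT_KO at D2 to 0.97 ± 0.27 in TET_WT at D2, with neighbours in that order overlapping. At the Shisa6 tile the D0 groups ran from -1.31 ± 1.44 in DNMT_WT to -0.26 ± 0.31 in DNMT_KO. The later groups ran from 0.83 ± 0.58 in DNMT_KO at D1 to 1.86 ± 0.39 (SD, n = 2) in TET_KO at D2.

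In the parents the D2 against D0 changes, which chose the tiles and carry no test, were 3.29 ± 0.48 (log2 change ± SE) in TET_WT and 2.59 ± 0.48 in DNMT_WT at the Plekha1 tile. At the Shisa6 tile they were 2.54 ± 0.38 in TET_WT and 2.95 ± 0.38 in DNMT_WT. The knockout libraries did not enter this choice by parental rise. They did enter the mean level over all libraries that set which tiles were tested. Members were also chosen with earlier results of these data known. Both tiles rose from D0 to D2 in TET_KO. The Plekha1 tile rose by 2.80 ± 0.54 (95% interval 1.71 to 3.88, limma adjusted p = 0.00199), and both D2 libraries were above all 3 D0 libraries. The Shisa6 tile rose by 2.14 ± 0.42 (1.29 to 2.98, limma adjusted p = 0.00259), again with both D2 libraries above. When every tile of autosomes and X was tested, the Plekha1 rise passed (limma adjusted p = 0.0279) and the Shisa6 rise did not (0.0972). In DNMT_KO the changes were 1.39 ± 0.48 at the Plekha1 tile (0.42 to 2.36, limma adjusted p = 0.131) and 1.29 ± 0.38 at the Shisa6 tile (0.53 to 2.05, limma adjusted p = 0.0538). All 3 D2 libraries were above all 3 D0 libraries at both tiles in DNMT_KO, but neither change passed the threshold of 0.05. The values were 0.36 at the Plekha1 tile with reads thinned to 1 depth (limma adjusted p = 0.922) and 0.43 at the Shisa6 tile pooled with its neighbours (limma adjusted p = 0.755). All D2 libraries lay above all D0 libraries in 14.3% of tested tiles in TET_KO and in 7.99% in DNMT_KO.

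The calls in TET_KO depended on its D2 libraries, of which there were 2. Without replicate 3 at D2 the Plekha1 change was 2.62 (limma adjusted p = 0.0628), and without replicate 1 at D2 the Shisa6 change was 1.86 (limma adjusted p = 0.154).
The change in TET_KO minus that in DNMT_KO was 1.41 ± 0.73 at the Plekha1 tile (-0.05 to 2.86, limma adjusted p = 0.772) and 0.85 ± 0.57 at the Shisa6 tile (-0.29 to 1.99, limma adjusted p = 0.861). No difference between the knockouts was called here, and 0.000675% of all tested tiles passed this comparison. The intervals include 0 and also differences larger than the rise in DNMT_KO itself.

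From D0 to D1 both tiles rose in TET_KO, by 2.54 ± 0.48 at Plekha1 (limma adjusted p = 0.0025) and 2.09 ± 0.38 at Shisa6 (limma adjusted p = 0.00119). All 3 D1 libraries were above all 3 D0 libraries at both, which is a description, since the share of tested tiles in that order is not given here. Without TET_KO replicate 2 at D0, which had 1 read at the Plekha1 tile, the Plekha1 change was 1.96 (limma adjusted p = 0.077). The Plekha1 call was also lost with thinned reads (2.20, limma adjusted p = 0.173) and with only the compared groups fitted (2.63, 0.113), and the Shisa6 call when pooled with its neighbours (1.72, 0.0506). In DNMT_KO the values were 1.63 ± 0.48 (limma adjusted p = 0.0777) and 1.09 ± 0.38 (limma adjusted p = 0.141). The parents gave 2.79 (TET_WT) and 1.94 (DNMT_WT) at Plekha1 and 1.95 and 2.75 at Shisa6, as values only since their D0 libraries chose the tiles. Before normalisation the median of tested tiles shifted from D0 to D1 by 0.41 to 0.62, depending on the line, and the changes are relative to that shift.

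Knockout and parent could be tested against each other at D1, a day that the choice by parental rise did not use. The mean level that set which tiles were tested did include D1. At the Plekha1 tile TET_KO minus TET_WT was 0.21 ± 0.48 (-0.77 to 1.18, limma adjusted p = 0.958) and DNMT_KO minus DNMT_WT was 0.15 ± 0.48 (-0.82 to 1.13, limma adjusted p = 0.961). At the Shisa6 tile the differences were 0.64 ± 0.38 (-0.12 to 1.40, limma adjusted p = 0.659) and -0.61 ± 0.38 (-1.37 to 0.14, limma adjusted p = 0.657). All 3 TET_KO libraries were above the 3 TET_WT libraries at the Shisa6 tile, as in 7.42% of tested tiles, and the other groups overlapped. The parental lines differed by -0.36 ± 0.48 and 0.26 ± 0.38 at D1 (DNMT_WT minus TET_WT, limma adjusted p = 0.843 and 0.856). At D0 and D2, given as values only, TET_KO minus TET_WT was 0.45 and -0.05 at Plekha1 and 0.49 and 0.09 at Shisa6, and DNMT_KO minus DNMT_WT was 0.46 and -0.73 at Plekha1 and 1.05 and -0.61 at Shisa6. At both tiles all DNMT_KO libraries at D2 were below those of the parent, as in 6.36% of tested tiles. The tiles were chosen for low D0 and high D2 levels in the parents, so nothing is read from these D0 and D2 values. In these bulk libraries a larger share of cells with an open site and a more open site in each cell cannot be told apart.

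The tiles beside the chosen ones are described by RPM (mean ± SD), since 3 of the 4 were below the level at which tiles were tested. Beside the Plekha1 tile, 130890001 to 130892000 went from 0.509 ± 0.061 at D0 to 1.90 ± 0.38 at D2 in TET_WT, from 0.372 ± 0.152 to 2.13 ± 0.19 in TET_KO, from 0.556 ± 0.527 to 1.52 ± 0.68 in DNMT_WT and from 0.537 ± 0.131 to 0.954 ± 0.215 in DNMT_KO. The tile on the other side, 130886001 to 130888000, held 0.655 ± 0.286 at D0 and 2.29 ± 0.49 at D2 in TET_WT 1.05 ± 0.73 and 1.61 ± 1.22 in TET_KO, 1.05 ± 0.54 and 1.36 ± 0.33 in DNMT_WT, and 0.548 ± 0.393 and 1.01 ± 0.45 in DNMT_KO. The mean of both flanks was higher at D2 than at D0 in each line, with the smallest D2 mean in DNMT_KO. The Plekha1 tile itself held 0.455 ± 0.194 and 3.18 ± 0.59 RPM in TET_WT at D0 and D2, and 0.666 ± 0.293 and 1.66 ± 0.21 in DNMT_KO.

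**Figure D2:**
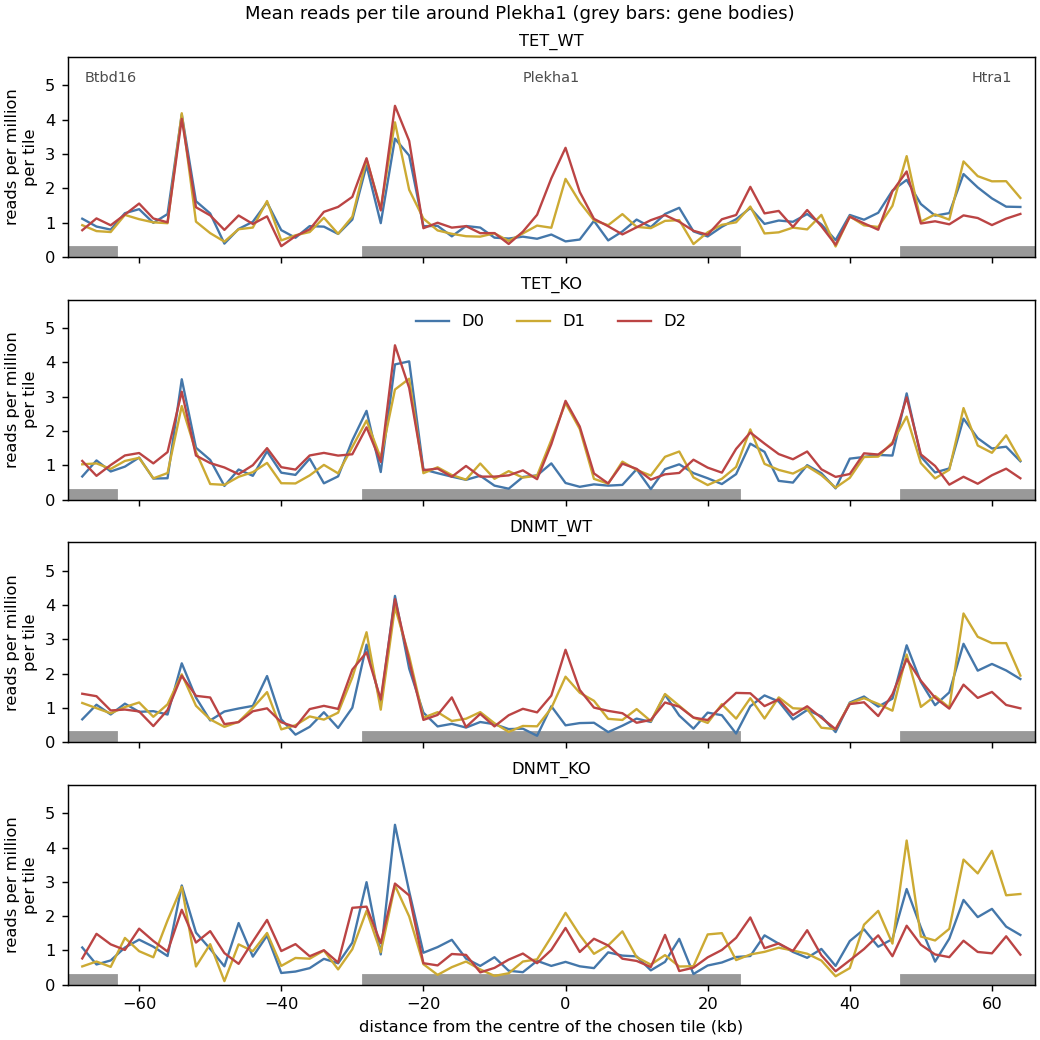
Mean RPM in each 2 kb tile around Plekha1, 1 panel per line and 1 line colour per day, against the distance from the centre of the chosen tile in kb. Grey bars are gene bodies. The chosen tile at 0 is lowest at D0 in each line, for example 0.455 at D0 and 3.18 at D2 in TET_WT.

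Beside the Shisa6 tile, 66566001 to 66568000 was tested. Its levels in TET_KO were -1.55, -1.19 and -1.55 at D0 (6, 5 and 3 reads), -0.39, 0.90 and 0.62 at D1 (10, 23 and 12 reads) and 0.66 and 0.51 at D2 (16 and 26 reads). In DNMT_KO they were -1.61, -1.50 and -1.12 at D0 (3, 3 and 4 reads), -0.60, -1.63 and -0.48 at D1 (6, 1 and 3 reads) and -1.05, -0.91 and -0.63 at D2 (6, 5 and 6 reads). The TET_KO libraries at D2 were above its D0 libraries, as in 14.3% of tested tiles. Its D1 libraries were above them too, for which no share is given here. DNMT_KO stayed under 0 on each day.
The flank rose in TET_KO by 2.01 ± 0.49 from D0 to D2 (limma adjusted p = 0.0202) and by 1.81 ± 0.43 from D0 to D1 (limma adjusted p = 0.0322). In DNMT_KO the D2 change was 0.55 ± 0.43 (limma adjusted p = 0.655). The difference between the knockouts was 1.46 ± 0.65 (0.15 to 2.77, limma adjusted p = 0.708), which did not pass. The D2 call in TET_KO was kept in 1 of 5 fits that left out 1 library, with adjusted p up to 0.259, and the D1 call was lost without any of 5 of its libraries (highest adjusted p 0.2). With values as deposited the D2 call was lost too (limma adjusted p = 0.0953). The tile on the far side, 66570001 to 66572000, held 0.469 ± 0.263 RPM at D0 and 1.11 ± 0.40 at D2 in TET_WT, and 0.837 ± 0.402 and 0.614 ± 0.400 in DNMT_KO.

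**Figure D3:**
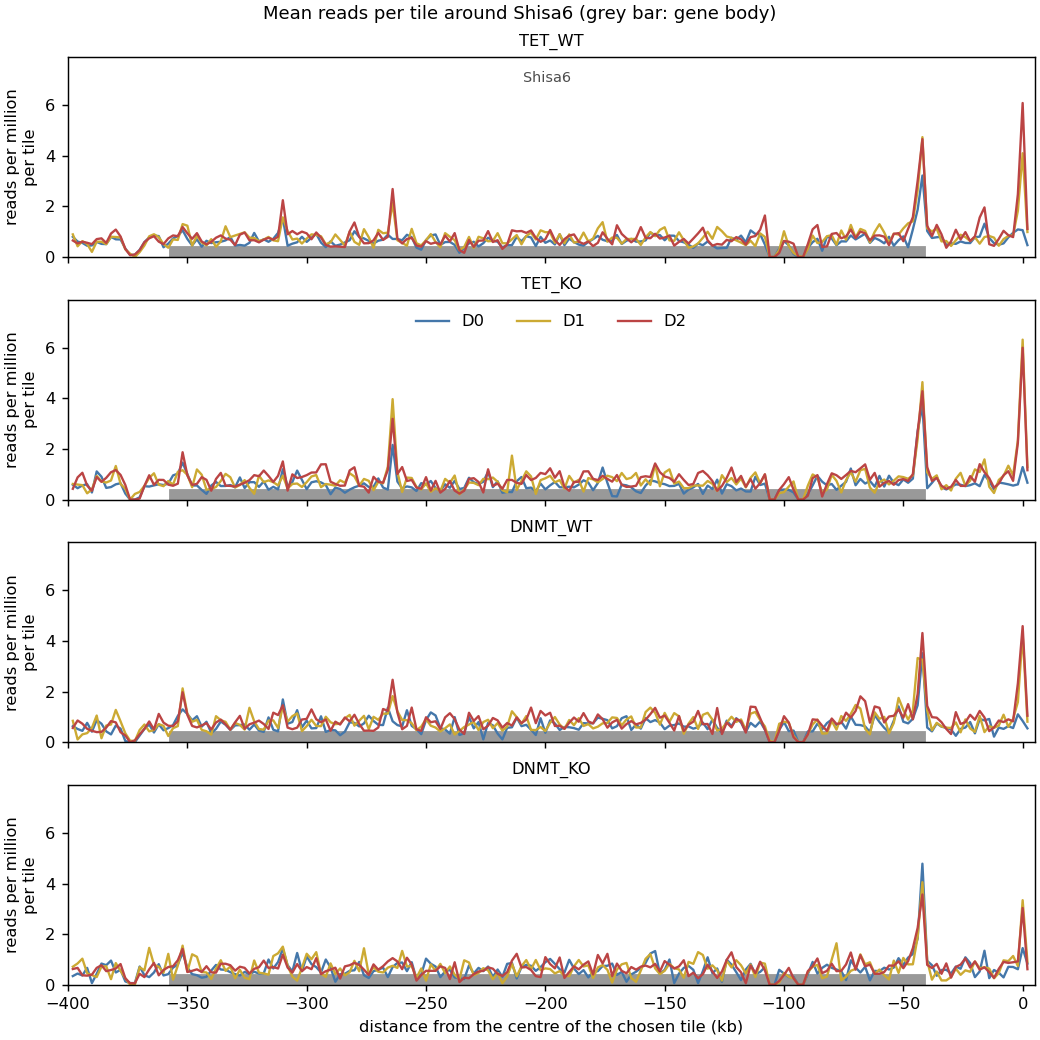
Mean RPM in each 2 kb tile around Shisa6, 1 panel per line and 1 line colour per day, against the distance from the centre of the chosen tile in kb. The grey bar is the Shisa6 gene body. The chosen tile at 0 rises from 1.06 at D0 to 6.09 at D2 in TET_WT, and from 1.45 to 3.03 in DNMT_KO.

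Of the 267 members 28 were tested, 19 around Plekha1 and 9 around Shisa6, chosen by their mean level over all libraries or by holding a gene start or end. A tile can pass such a filter through the groups in which it is high, so the counts below describe these tiles only. After normalisation the Plekha1 tile and the Shisa6 flank had D0 means under the filter bound of -0.55 in each line (-2.32 to -1.38 and -1.43 to -0.61). They passed the filter through their later levels. From D0 to D2, 3 of the 28 rose in TET_KO, against 0.163% of all tested tiles, and 2 fell, against 0.867%. The 3 that rose are the chosen tiles and the Shisa6 flank, and the 2 that fell lie in Htra1. The chosen tiles were picked for rising from D0 to D2 in both parents, and the flank adjoins 1 of them. Neither this count nor that of the same 3 tiles at D1 below is therefore read against the background. In DNMT_KO 0 of 28 passed limma's threshold (7 at an unadjusted p under 0.05, 0 with voom), against 2.26% of tested tiles. From D0 to D1, 3 rose in TET_KO (0.219% of tested tiles rose) and 0 passed in DNMT_KO (4 at an unadjusted p under 0.05, 0 with voom; background 1.28%). Between TET_KO and TET_WT, limma called 0 of 26 at D0 (1 at an unadjusted p under 0.05, 1 with voom; background 0.151%), 0 of 28 at D1 (2 and 0; background 0.117%) and 0 of 26 at D2 (1 and 0; background 0.0979%). Between DNMT_KO and DNMT_WT it called 0 of 26 at D0 (0 and 0; background 0.000675%), 0 of 28 at D1 (4 and 0; background 0.0547%) and 0 of 26 at D2 (3 and 0; background 0.0263%).

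No change was called at the gene starts. The tile with both Plekha1 starts, 130864001 to 130866000, had mean levels from 0.63 ± 0.48 (DNMT_KO at D1) to 1.52 ± 0.08 (TET_KO at D2) over the 12 groups. Its D2 against D0 differences were 0.23 ± 0.32 in TET_KO (95% interval -0.41 to 0.87, limma adjusted p = 0.918) and -0.28 ± 0.29 in DNMT_KO (-0.86 to 0.29, limma adjusted p = 0.751), so the bounds lie below the estimated rise of the chosen tile. The long non-coding RNA gene Gm5602 overlaps the same tile. For Shisa6 the more accessible of its gene ends, tile 66526001 to 66528000, ranged from 0.98 ± 0.25 (TET_WT at D0) to 1.54 ± 0.20 (DNMT_WT at D2). Its differences were 0.21 ± 0.34 in TET_KO (-0.47 to 0.89, limma adjusted p = 0.933) and -0.11 ± 0.30 in DNMT_KO (-0.71 to 0.50, limma adjusted p = 0.940). These 2 tiles had the highest mean level of their windows, and neither passed the test in a knockout. Of the next highest tiles, 130834001 and 130866001 around Plekha1 and 66524001 in Shisa6 differed by -0.26 to 0.59 from D0 to D2 in the knockouts, with limma adjusted p from 0.504 to 0.991. The tile 66258001 in Shisa6, of lower mean level, differed by 0.39 ± 0.55 in TET_KO and -0.17 ± 0.49 in DNMT_KO (limma adjusted p = 0.917 and 0.94).

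Inside Shisa6 the tile 66304001 to 66306000, next in mean level after 66524001, had a pattern by line. In TET_WT its levels were -1.49, -0.91 and -2.42 at D0 (18, 10 and 5 reads), -0.28, 0.46 and 0.80 at D1 and -0.26, 1.31 and 0.05 at D2. In TET_KO they were 0.63, 0.03 and 0.64 at D0 (23, 12 and 15 reads), 0.77, 1.54 and 1.12 at D1 and 1.27 and 0.75 at D2. All TET_KO libraries at D0 were above all TET_WT libraries at D0, as in 8.09% of tested tiles.
In DNMT_WT the levels were -0.74, -0.71 and -1.65 at D0, 0.08, 0.30 and 0.12 at D1 and 0.41, 0.84 and 0.75 at D2. In DNMT_KO they were -2.74, -0.83 and -0.85 at D0, -1.06, -2.77 and 0.05 at D1 and -1.35, -0.04 and -0.90 at D2. At D2 the libraries of DNMT_KO were below those of DNMT_WT, as in 6.36% of tested tiles. They were also below at D1, for which no share is given here.
At D0 TET_KO exceeded TET_WT by 2.04 ± 0.53 (0.98 to 3.09, limma adjusted p = 0.0849). Limma voom on the recovered reads gave 1.90 ± 0.41 (adjusted p = 0.00917), but voom called 2711 tiles in this comparison, against 224 in the main fit. When every tile was tested the difference was 1.75 ± 0.57 (limma adjusted p = 0.575). At D1 the difference was 0.81 ± 0.53 (limma adjusted p = 0.698). DNMT_KO minus DNMT_WT at D1 was -1.42 ± 0.53 (limma adjusted p = 0.337). From D0 to D2 the tile changed by 1.97 in TET_WT and 1.70 in DNMT_WT, as values only, and by 0.57 ± 0.59 in TET_KO (limma adjusted p = 0.863) and 0.71 ± 0.53 in DNMT_KO (limma adjusted p = 0.623). The mean D0 level was thus higher in TET_KO than in its parent and the means of DNMT_KO stayed low, as a description without a call in limma.

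Part of the tested tiles inside Htra1, at the far edge of the Plekha1 window, went the other way. The 5 tiles from 130944001 to 130954000 all had negative D2 against D0 values in each of the 4 lines, from -2.29 to -0.76 in TET_KO, -1.25 to -0.28 in TET_WT, -1.32 to -0.11 in DNMT_KO and -0.90 to -0.53 in DNMT_WT. In TET_KO the levels of the tile 130944001 were 0.76, 0.42 and 0.56 at D0 (25, 16 and 14 reads), 1.10, 0.68 and 0.40 at D1 (26, 19 and 10 reads) and -1.81 and -0.94 at D2 (3 and 11 reads). At the tile 130946001 they were 0.48, -0.37 and 0.38 at D0 (21, 9 and 12 reads), -0.09, -0.43 and 0.40 at D1 and -1.32 and -2.93 at D2 (4 reads in each). D0 and D1 overlapped at both tiles, and both D2 libraries were below all of them. Both D2 libraries were below all D0 libraries in 13.5% of tested tiles.
In TET_KO the first fell by 1.95 ± 0.45 (log2, limma adjusted p = 0.0127) and the second by 2.29 ± 0.51 (limma adjusted p = 0.00903). The calls were lost without replicate 1 at D0 (limma adjusted p = 0.0572 and 0.0531). The first was also lost without replicate 1 at D2 (0.415) and the second without replicate 3 at D2 (0.432), and both when every tile was tested (0.145 and 0.0818). In DNMT_KO the values were -1.003 ± 0.40 (limma adjusted p = 0.215) and -0.97 ± 0.45 (limma adjusted p = 0.327), and the differences between the knockouts of -0.95 ± 0.60 and -1.32 ± 0.68 did not pass (limma adjusted p = 0.843 and 0.77). The Htra1 start tile 130936001 had group means between 0.03 ± 0.59 (DNMT_KO at D2) and 1.24 ± 0.09 (DNMT_KO at D1). The 5 tiles were set to begin at the first called tile. Between them and the start tile, the tested tile 130938001 had higher means at D2 than at D0 in TET_KO (-0.34 and -0.19 at D0 and D2) and DNMT_WT (-0.05 and 0.13). Its means were lower at D2 in TET_WT (-0.14 and -0.87) and DNMT_KO (-0.10 and -0.52). Opening at a tile inside Plekha1 and loss in part of Htra1 thus lay within 1 window, in opposite directions.

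**Figure D4:**
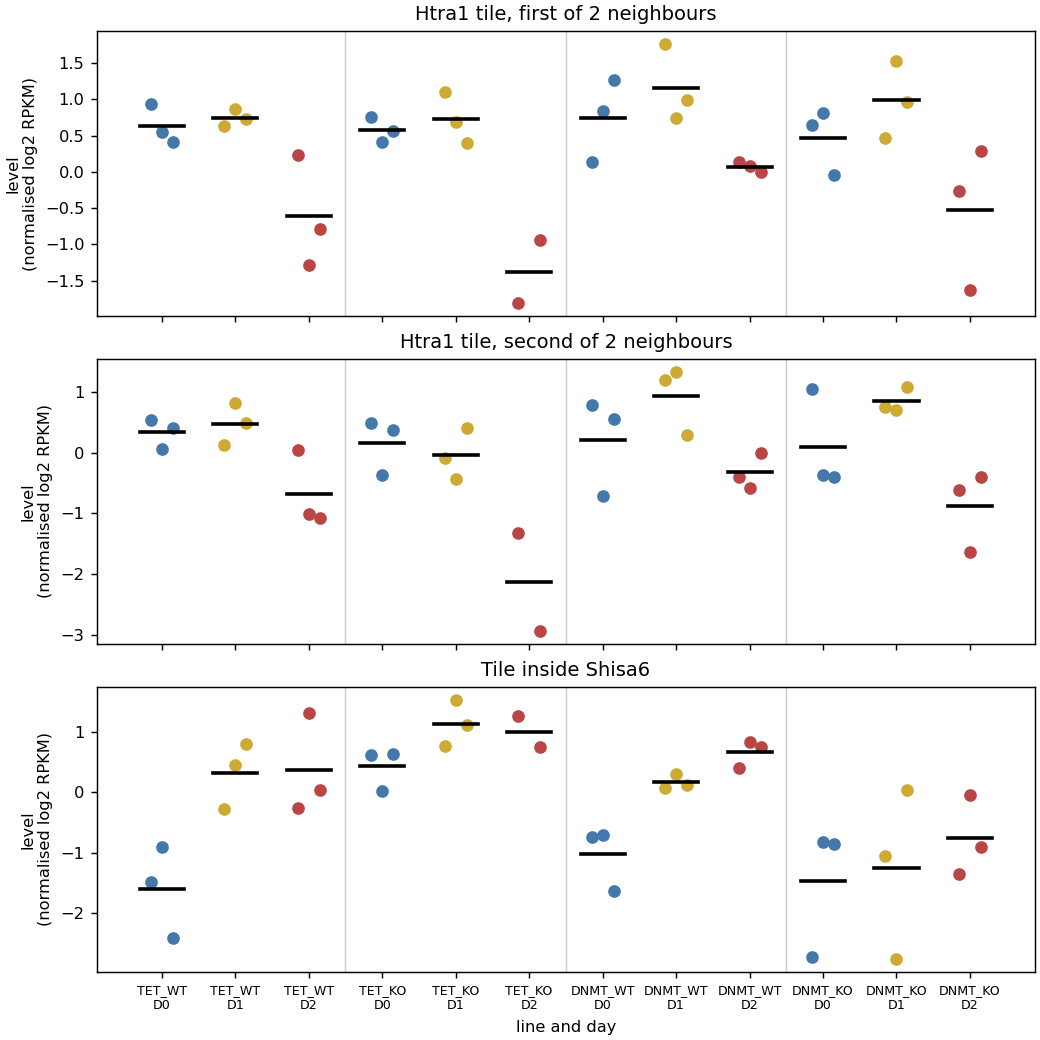
Levels of 2 neighbouring Htra1 tiles and of the tile inside Shisa6 in every library, as log2 RPKM after quantile normalisation, by line and day. Each point is 1 library and the bar is the group mean. In TET_KO the first Htra1 tile is between 0.42 and 0.76 at D0 and at -1.81 and -0.94 at D2, and the Shisa6 tile is between 0.03 and 0.64 at D0, above the 3 TET_WT libraries.

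The remaining 239 members were too low to be tested. The 48 around Plekha1 held 3.14 to 9.49 reads per library on average and the 191 around Shisa6 held 0 to 8.66, with 2 tiles empty in every library. The median tile of the windows held 0.726 RPM, against 0.684 over all tiles of autosomes and X, so most of both windows was at the level of the genome at large. When every tile of autosomes and X was tested, the flank 130890001 passed in TET_KO from D0 to D2 (2.83 ± 0.53, limma adjusted p = 0.035), beside the chosen Plekha1 tile (2.90 ± 0.53, limma adjusted p = 0.0279) and the Shisa6 flank (2.12 ± 0.39, limma adjusted p = 0.0315).

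**Figure D5:**
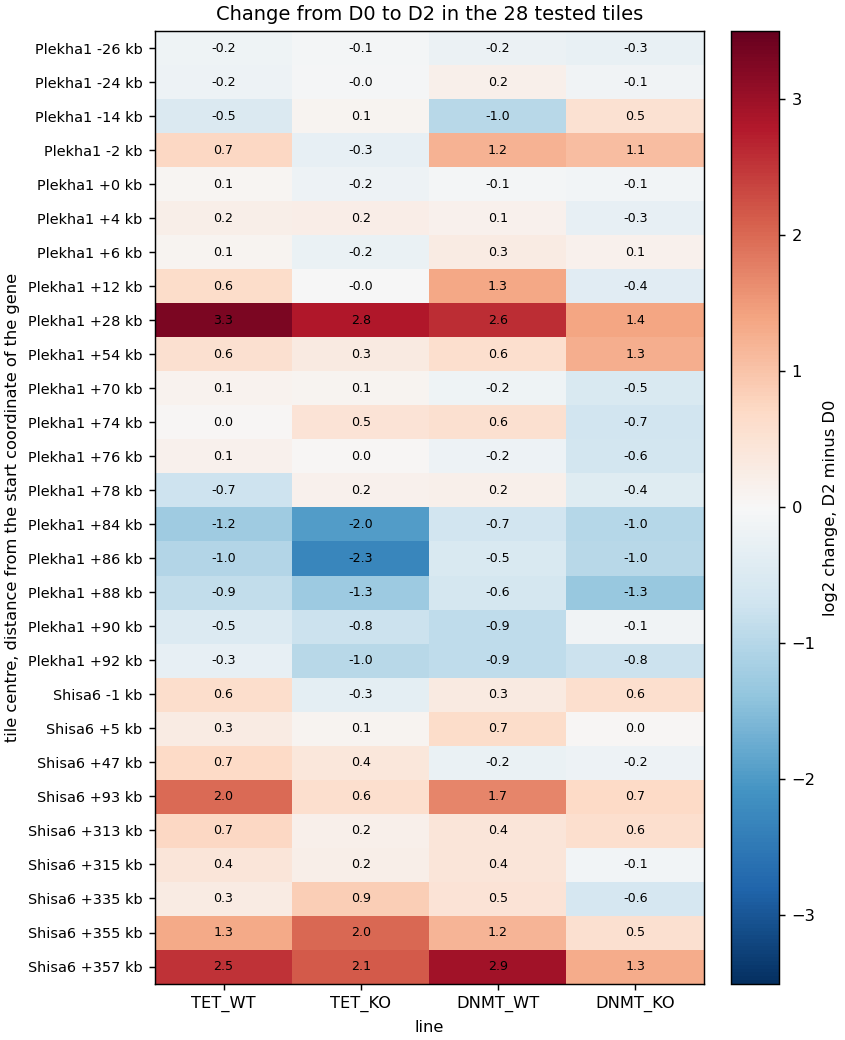
Log2 change from D0 to D2 of each of the 28 tested tiles in each line, with tiles as rows, ordered by position, by the distance of the tile centre from the start coordinate of the gene in kb, and lines as columns. Colour and number give the change. The chosen tiles are positive in every line, from 1.29 to 3.29, and the 5 Htra1 tiles from 130944001 to 130954000 are negative in every line.

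The genes around these members in their pathways were described by gene loci, the mean over tested tiles in a gene and 10 kb on either side. Of 36 genes of PI3-kinase and PI(3,4)P2 signalling 2 are named, chosen after their values were seen. Grb2, which encodes an adaptor of receptor tyrosine kinases, had a D2 against D0 value of -0.62 ± 0.14 in TET_KO (limma adjusted p = 0.0522). Mpdz, which encodes a PDZ-domain scaffold protein that binds Plekha1, had 0.79 ± 0.33 in TET_KO (limma adjusted p = 0.434) and -0.56 ± 0.30 in DNMT_KO (limma adjusted p = 0.337). The median of the list was 0.03 in TET_KO and 0.07 in DNMT_KO, where all genes had 0.04 and 0.08.
Of the 10 other Shisa family genes 0 passed in either knockout (limma, 2 in each at an unadjusted p under 0.05). The largest values were 0.73 ± 0.25 for Shisa2 in TET_KO and 0.87 ± 0.39 for Shisa9, also an AMPA receptor partner, in DNMT_KO (limma adjusted p = 0.295 and 0.238).
Of 21 AMPA receptor genes and partners 0 passed in TET_KO (limma, 1 at an unadjusted p under 0.05), where Gria4, which encodes a receptor subunit, had the largest value at 0.71 ± 0.38. In DNMT_KO 1 rose, Cacng8, which encodes an auxiliary subunit of these receptors, by 0.83 ± 0.20 (limma adjusted p = 0.0259). That call was kept in 1 of 6 fits without 1 library (highest adjusted p 0.123). Its limma adjusted p was 0.509 with values as deposited and 0.164 with reads thinned to 1 depth. Over all gene loci, 0.245% were called in TET_KO and 2.25% in DNMT_KO, so nothing is read from these counts. The medians of the list were 0.16 and 0.09.

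The chosen tiles followed each other over the 35 libraries with a Pearson correlation of 0.78, where the median over tested tiles was 0.02 for either. These points share line, day and depth, and the tiles were chosen for the same rise. Outside the windows, the tiles most like the Plekha1 tile had correlations of 0.81 to 0.84 and lay nearest to Abcd4, Serp1, Anks1b, Spata3 and Naf1. Those most like the Shisa6 tile had 0.84 to 0.88 and lay nearest to Dpp6, Abcd4, Itpr2, Gcfc2 and Bmf. The tile near Abcd4 (chr12:84624001-84626000, 6.52 kb from the gene) was on both lists, at 0.84 and 0.87. Its D2 against D0 values were 2.29 in TET_WT, 1.95 in DNMT_WT, 1.40 in TET_KO and 1.83 in DNMT_KO. By contrast the tile most like Shisa6, 123.4 kb from Dpp6, had 1.58, 1.99, 1.68 and 0.28 in the same order.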

How the data were processed

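ATAC-seq was measured in 35 libraries of 12 groups. The submitters' processing notes name Trim Galore 0.6.5, cutadapt 2.3, Bowtie2 2.4.1 and the build GRCm38. How duplicates and the transposase shift were treated and which tool counted reads are not given in the sources used here. Values are log2 RPKM per 2 kb tile as deposited, per the file headers. Values came in steps of whole reads (at least 99.9994% of values within 0.01 read, an empty tile standing at 0.9 read), from which reads were recovered. The summed reads were about 2.05 times the total behind the RPKM at D1 and 1.15 (TET) or 1.02 (DNMT) times at D0 and D2.

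Tested tiles were the highest 10% by mean on autosomes and X (131690, minimum -0.55) and those with a gene start or, for genes without a RefSeq promoter entry, either gene end (35490), 148172 in all. Quantile-normalised values entered a limma trend fit (version 3.58.1 in R 4.3.3), 1 mean per group (23 residual degrees of freedom, median prior 29.78) and 18 contrasts. The 2-sided p-values were adjusted by Benjamini-Hochberg over all tested tiles or gene loci. For the chosen tiles no p is given for a contrast with a parental D0 or D2 library, and for no tile or gene in the parental D2 against D0 contrasts. No libraries were duplicates (chi-square per tile 1.09 to 2.60 within groups). No pairing of libraries by replicate number was seen, which does not exclude it. Tiles printed in full were the chosen ones, their flanks, gene starts and the highest of each window. The Htra1 tiles were chosen after their values were seen. List genes named were those called or, where a list had no call in a knockout, the gene of the largest value. Grb2 and Mpdz were instead chosen after their values were seen. Calls in the PI3-kinase list are not reported here. Members and gene lists were chosen with earlier results of these data known. Alternatives covered normalisation, filter, added reads, voom, thinning, the groups fitted, the replicate block, neighbouring tiles and single libraries.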

Additional observations from a re-analysis of the deposited data

How the results depend on the processing

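The TET_KO rise from D0 to D2 kept its direction under every alternative run at both chosen tiles. At the Plekha1 tile it no longer passed with reads thinned to 1 depth (2.55, adjusted p = 0.0996) or with only the compared groups fitted (2.79, 0.173), and ranged from 2.21 to 3.21 (adjusted p up to 0.0628) without 1 library. At the Shisa6 tile it no longer passed without a filter (2.17, 0.0972) or pooled with its neighbours (1.76, 0.0596), and ranged from 1.86 to 2.41 without 1 library. The DNMT_KO change at Shisa6 passed with 2 reads added (1.14, adjusted p = 0.03), was 0.43 pooled with its neighbours and ranged from 1.12 to 1.42 without 1 library. At Plekha1 it was 0.36 when thinned and ranged from 1.08 to 1.65 without 1 library. The Plekha1 tile is not among the highest 5% of tiles and has no value there. At D1 the Plekha1 difference TET_KO minus TET_WT turned to -0.051 without TET_KO replicate 3 (range -0.05 to 0.47), and DNMT_KO minus DNMT_WT to -0.23 without DNMT_WT replicate 2 (range -0.23 to 0.44), neither near a call. The count of window tiles called in TET_KO, 5 as reported, was 3 without a filter, 3 among the highest 5% of tiles, 1 when thinned, 1 with only the compared groups, and 2 to 5 without 1 library. In DNMT_KO it was 1 with 2 reads added and 0 without any 1 library. Where TET_KO at D2 lost a library, the lone one was assumed to vary like the other groups. The Shisa6 flank and Htra1 calls in TET_KO were each lost when thinned (adjusted p 0.105 for the flank, 0.554 and 0.0996 for Htra1) and with only the compared groups (0.17, 0.142 and 0.254). The flank call at D2 was also lost when centred (0.0641) and the first Htra1 call with voom (0.0638). The flank call at D1 was lost when centred (0.0521), with voom (0.0589), when thinned (0.116) and with only the compared groups (0.211). The causes of lost calls were not tested.

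No pairing by replicate number was seen: correlations of 17 same-numbered pairs ran from -0.13 to 0.13, and 6 correlated best with their own number. Of the 17, 2 were over 0.1. Weak correlations over few libraries cannot exclude shared cultures or batches. With the replicate block the TET_KO rises were 2.68 at Plekha1 (adjusted p = 0.00339) and 2.18 at Shisa6 (0.00241), the counts of window tiles called were again 5 and 0, and the block changed no call at the chosen tiles. At the Plekha1 tile most D0 libraries had single-digit read numbers, which limits the precision of the rise there.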
